A study of Phoxinus septimaniae with 18 samples.

Results

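The mitochondrial gene COX1 was followed through 18 RNA-seq libraries of brain, gills and liver of an invasive minnow, described by the submitters as a cross of Phoxinus septimaniae and P. dragarum. Its members are the assembled transcripts with COX1 in any field of their identifier. Although the gene was chosen as a set of switching variants, the rule found 1 transcript, DN28674_c1_g1_i1, whose protein hit is FUGRUmt_COX1_16714_3, among 85665 distinct transcripts in the 3 tables. No share of one COX1 variant against another was therefore computed. Other transcripts may hold COX1 under accessions without symbols, and which do was not looked up. In the values below, COX1 stands for this 1 transcript, whose level differed between fish. For comparison, 7 other transcripts carry a hit whose source code ends in mt, 7 of them measured in brain, 5 in gills and 5 in liver. COX1 was chosen by its CPM in these same libraries, which switched between fish, so its levels and its pattern over fish are a description with no test.

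COX1 encodes the core catalytic subunit of cytochrome c oxidase, complex IV of the mitochondrial respiratory chain, which passes electrons to oxygen. In vertebrates the gene lies in the mitochondrial genome, which is inherited mainly from the mother and is present in many copies per cell. Its sequence is widely used to tell fish species apart, and in a hybrid fish the mitochondrial genome can come from either parent species. The identifiers of the other transcripts carry protein accessions without gene symbols, so they are named here by transcript and accession only.

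Fish were caught in the Llobregat River, near Barcelona, at a salt station by a potash mine with a salinity of 18.1 ppt and at an upstream reference station of lower salinity. Each of the 3 tissues has 3 libraries per station, from wild fish of unstated age and sex. Salinity and station cannot be told apart, and no other treatment is labelled. Total counts ran from 15200774 to 39881549 per library. The tissue labels could not be checked against marker genes, because 0 identifiers hold a symbol of the marker lists.

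The design text speaks of 6 fish, while the library descriptions, read without their last letter as a fish code, hold 9 codes. Of these, 3 codes occur in all 3 tissues, 3 in brain and liver only and 3 in gills only. The replicate numbers of the titles follow the codes between brain and liver. In gills only reference 1 has the code that its number has in the other tissues. The fish labelled reference 2 in brain and liver has the code BC2C and is called reference fish 2; it has no gill library among those analysed, since gill reference 2 has another code, BC5A. The code was compared with the data through transcripts on in one library and off in another. Between brain and liver, the 6 pairs of the same code shared 3 to 21 transcripts that were at least 50-fold below every other library of the tissue, and the 30 pairs of different codes shared 0 or 1.

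The gill library labelled salt 3, code BC1B, went against its code. Only 417 transcripts had at least 10 CPM (reads per 1000000 counts of the library) in it and no count in gill reference 1, or the reverse, against 2789 to 3267 in the other 14 gill pairs. Of its 177 transcripts at 0 counts among 7139 expressed in both tissues, 103 were also at 0 in brain reference 1, code BC1C, and 26 in brain salt 1, which carries its own code. Gill reference 1, code BC1C, shared 105 such transcripts with brain reference 1. The main station and tissue tests that use gills are also given without these 2 libraries. The fits with the fish code as a block and the tests of the station effect between tissues are not.

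The COX1 transcript stood at 2 levels, and the high level occurred in the brain and the liver of reference fish 2. In brain, COX1 was at 173, 22750 and 142 CPM in reference fish 1, 2 and 3 and at 133, 195 and 133 CPM in salt fish 1, 2 and 3. The high library thus stood apart from 5 libraries that spanned less than a doubling. It held 551866 COX1 reads, 2.27% of its counts (95% Wilson interval 2.27 to 2.28%), and COX1 ranked 2 of 62498 transcripts by count there, against ranks of 629 to 1085 in the other brains.

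In liver, COX1 was at 47.4, 7452 and 47.6 CPM in reference libraries 1, 2 and 3 and at 32.9, 27.1 and 56.5 CPM in salt libraries 1, 2 and 3. The liver of reference fish 2 was again the one high library, with 246156 reads, 0.745% of its counts and rank 16 of 31568 transcripts. In gills, COX1 was at 91.3, 94.1 and 112 CPM at the reference station and at 83.6, 72.0 and 96.6 CPM at the salt station, the last of these being the library that went against its code. All 6 gill libraries were at the low level, and none of them has the code of reference fish 2.

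**Figure D1:**
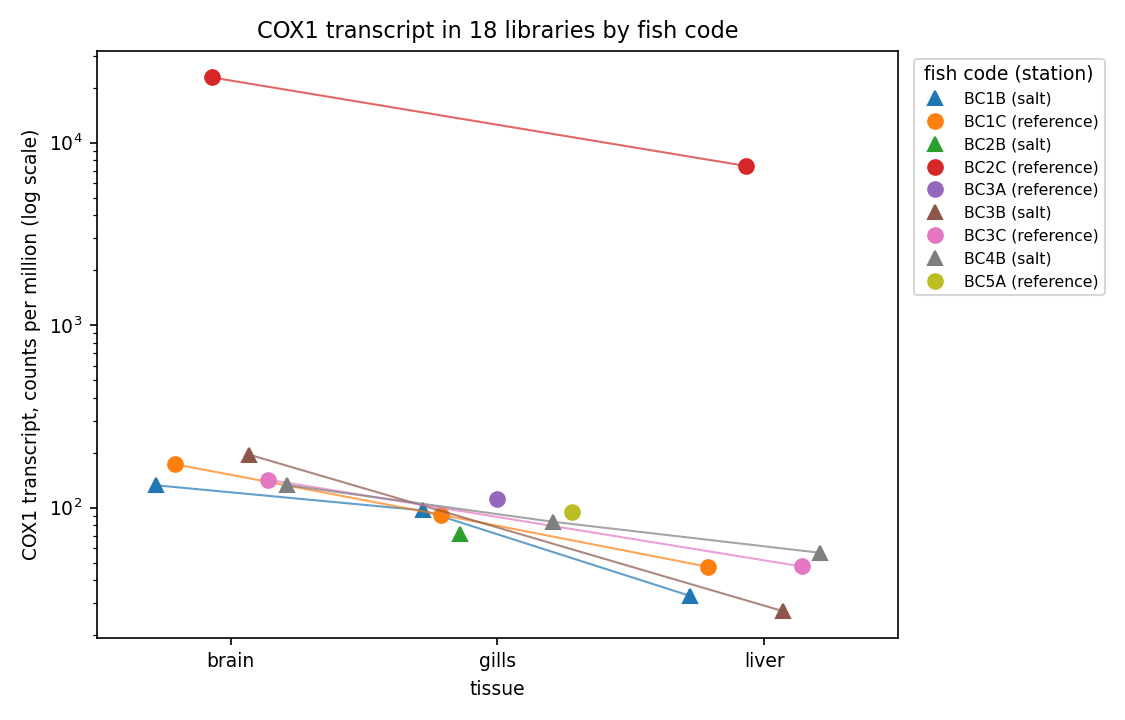
COX1 transcript level in CPM (log axis) in each of the 18 libraries by tissue, with circles for the reference and triangles for the salt station and lines joining libraries of the same fish code. The brain and liver of code BC2C lie at 22750 and 7452 CPM, and the other 16 libraries lie between 27.1 and 195 CPM; the gill library of code BC1B is the one whose contents went against its code.

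Reference fish 2 exceeded the median of the other 5 libraries 160-fold in brain and 157-fold in liver. The ratio of brain to liver within this fish, 3.05, lay inside the range of the 5 other fish with both tissues, 2.35 to 7.20. Individual ratios were 4.03 for code BC1B, 3.65 for BC1C, 7.20 for BC3B, 2.99 for BC3C and 2.35 for BC4B. On total counts, the COX1 transcript in reference fish 2 was thus raised by a similar factor in both tissues. With TMM-scaled library sizes the factors were 177 in brain and 130 in liver. The other codes were low for this transcript in each tissue measured.

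The other transcripts with an mt code moved in both directions in reference fish 2. The most abundant was DN112276_c2_g1_i3, with the hit XENTRmt_YP_203382.1. In brain it was at 5508, 0.45 and 4610 CPM in reference fish 1, 2 and 3 and at 6207, 4999 and 4859 CPM in the salt fish. The 0.45 CPM of reference fish 2 was 11 reads. In liver it was at 1170, 0.03 and 1084 CPM at the reference station, the middle value being 1 read, and at 733, 718 and 758 CPM at the salt station. Its pattern was the reverse of that of COX1, with reference fish 2 alone low in both tissues and the 6 gill libraries, at 1278 to 3375 CPM, none near 0.

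A second transcript with the same hit, DN80_c2_g1_i1, had no read in the brain or the liver of reference fish 2. Its other brain levels were 330 to 485 CPM, its other liver levels 86.0 to 128 CPM and its gill levels 186 to 257 CPM. Another transcript of that hit, DN117352_c1_g1_i1, was also at 0 in both libraries of that fish, against 4.18 to 15.2 CPM in the other brains and 0.97 to 2.47 CPM in the other livers. In gills DN117352_c1_g1_i1 was at 8.42 to 18.8 CPM, a range that overlapped that of its other brains. Both transcripts therefore shared with DN112276_c2_g1_i3 the low level in reference fish 2.

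The remaining transcripts with that hit, DN19962_c0_g1_i1 and DN19962_c0_g1_i4, belong to 1 assembled gene. Both were at 0 in the brain of reference fish 2. In reference fish 3, all 218 reads of the gene were on i1 and none on i4. In the other 4 brains 75.9 to 87.6% were on i4. Reference fish 3 therefore carried an exchange of transcripts of its own, unlike that of reference fish 2 and without a raised COX1 level.

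DN30033_c0_g1_i1, with the hit XENTRmt_YP_203380.1, moved with COX1. In brain it had 2, 25554 and 118 reads in reference fish 1, 2 and 3 and 3, 1 and 0 reads in the salt fish, which put reference fish 2 at 1053 CPM. In liver it had 1, 16849 and 48 reads at the reference station and 0, 0 and 1 at the salt station, which put reference fish 2 at 510 CPM. After reference fish 2 the next library in both tissues was reference fish 3, at 4.98 CPM in brain and 1.55 CPM in liver, while the other libraries held 0 to 3 reads. It was not analysed in gills.

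The last one, DN257695_c0_g1_i1 with the hit XENTRmt_YP_203372.1, did not set reference fish 2 apart. That fish had 4.74 CPM in brain, within the 1.06 to 7.01 CPM of the others, and 0.67 CPM in liver, within 0.35 to 2.70 CPM. The lowest library was reference fish 3 in both tissues. Of the 7 transcripts, 5 were thus near or at 0 in reference fish 2 where measured, 1 was high there and 1 was in the range of the other fish.

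**Figure D2:**
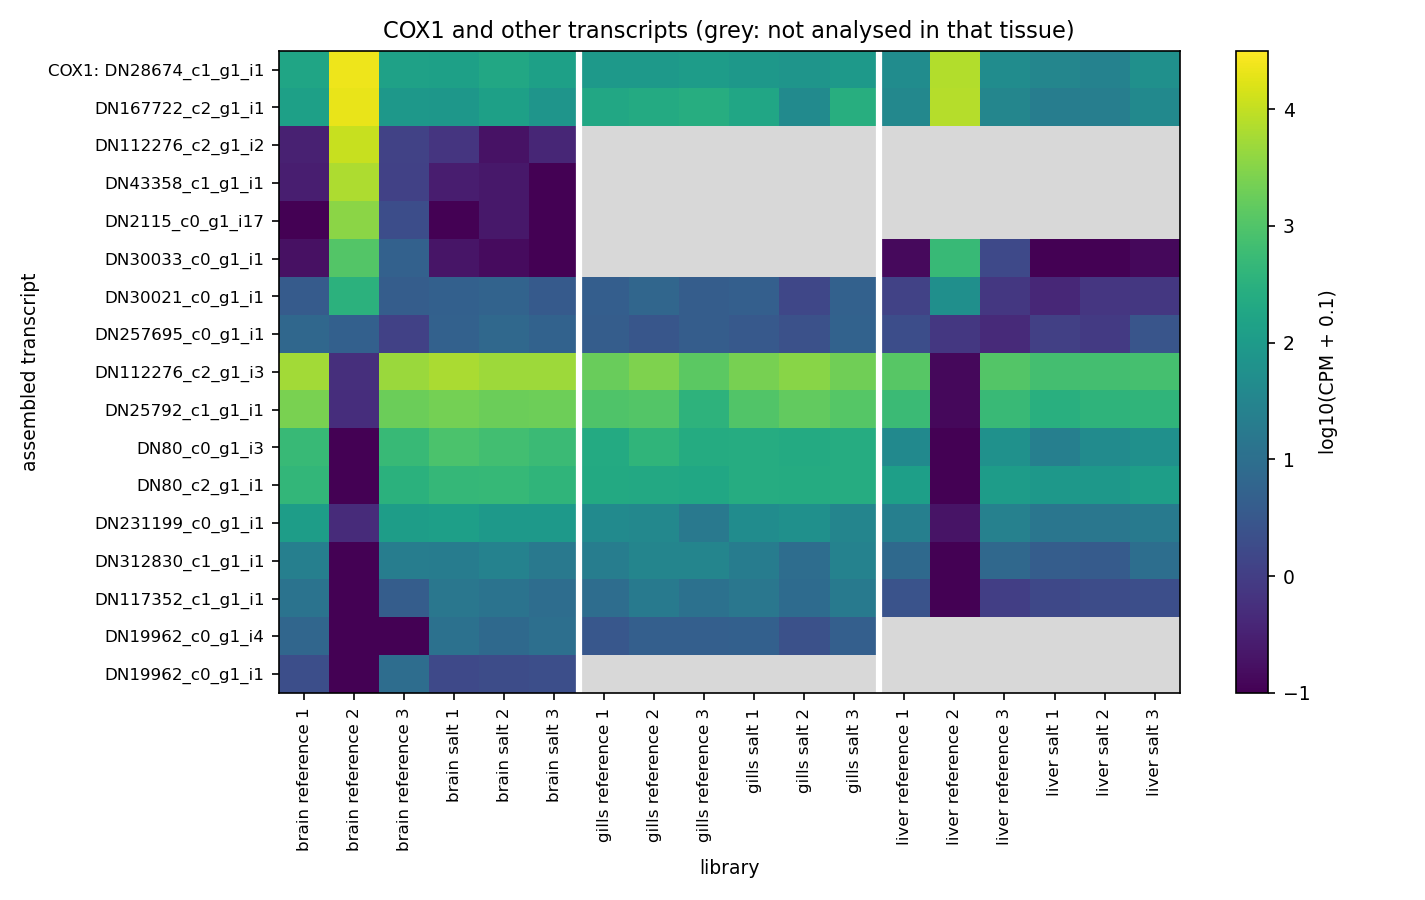
Level of COX1 and 16 other assembled transcripts, as log10(CPM + 0.1), in each library; rows are transcripts, columns libraries, and grey cells were not analysed in that tissue. The columns for brain and liver reference 2 are bright in the upper rows, where COX1 is at 22750 and 7452 CPM, and dark from DN112276_c2_g1_i3 down, where that transcript is at 0.45 and 0.03 CPM.

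DN112276_c2_g1 itself held an exchange of transcripts within 1 assembled gene. In brain its second transcript, i2, with the hit ENSDARP00000087881, had 268248 reads or 11058 CPM in reference fish 2 and 2 to 27 reads in the other 5. The sum of the assembled gene was 11059 CPM in reference fish 2 and 4611 to 6208 CPM in the others. The gene's reads were thus almost entirely on i2 in reference fish 2 and on i3 elsewhere, with a sum that differed far less than either transcript. The 2 transcripts carry hits from different source codes, DANRE for i2 and XENTRmt for i3. Their different accessions therefore do not show that they encode different proteins. The transcript i2 was analysed in brain only.

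Hits carried by 2 transcripts also had 1 transcript high and 1 low in reference fish 2, but with large net rises when summed per hit. For ENSDARP00000087875, DN167722_c2_g1_i1 was at 20564 CPM in the brain and 7650 CPM in the liver of reference fish 2, against 74.7 to 132 and 21.6 to 41.2 CPM in the others. The second transcript of that hit, DN312830_c1_g1_i1, had 0 reads in both libraries of reference fish 2, against 16.6 to 26.7 CPM in the other brains and 3.70 to 9.52 CPM in the other livers. For ENSDARP00000087881, i2 was the high one and DN231199_c0_g1_i1 was at 0.37 CPM in the brain of reference fish 2, against 93.2 to 129 CPM elsewhere in brain. In both hits the rise of the high transcript far exceeded the fall of the low one. Their sums per hit were thus higher in reference fish 2. For ENSDARP00000087881 that sum leaves out DN112276_c2_g1_i3 of the same assembled gene as i2, which carries another hit. That transcript was at 0.45 CPM in the brain of reference fish 2, against 4610 to 6207 CPM in the others. With it, the assembled gene summed to 11059 against 4611 to 6208 CPM.

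A low transcript with no high partner of the same hit among those analysed was DN25792_c1_g1_i1, hit ENSDARP00000087878. It was at 0.41 CPM in the brain and 0.03 CPM in the liver of reference fish 2, against 1843 to 2502 and 300 to 548 CPM in the others. DN80_c0_g1_i3, hit ENSDARP00000087871, had 0 reads in both libraries of that fish, against 511 to 871 CPM in the other brains and 23.9 to 59.4 CPM in the other livers. Each analysed transcript reaches 1 CPM in 2 or more of 6 libraries. A high partner of either transcript, on in reference fish 2 alone, would therefore not have been seen. COX1 was high in reference fish 2, and no second transcript with COX1 in its identifier was found. The other identifiers hold accessions without symbols, so a second COX1 transcript under such an accession would not have been recognised. In the other fish, whose COX1 level was the low one, no other identifier carried COX1 either.

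Few of the analysed transcripts were set apart as high in reference fish 2. Each analysed transcript reaches 1 CPM in 2 or more of 6 libraries, so those on in this fish alone are not counted. In its brain, 10 of 62498 transcripts (0.016%) reached 10 CPM and stood at least 50-fold above every other brain. These 10 summed to 6.61% of the counts, against 0 to 0.110% for the 0 to 5 such transcripts of each other brain. Besides COX1, DN167722_c2_g1_i1, DN112276_c2_g1_i2 and DN30033_c0_g1_i1 they included DN43358_c1_g1_i1, at 6588 CPM against 0 to 1.06 CPM, and DN2115_c0_g1_i17, at 3443 CPM against 0 to 1.86 CPM. The level of i17 is not that of its assembled gene. In that brain i2 was at 369 against 2822 to 4834 CPM and i23 at 254 against 1269 to 1550 CPM. Of the gene's other transcripts, i11 was also lower than in every other brain, i15 was in their range and i14 was higher. In the liver of reference fish 2, 5 of 31568 (0.0158%) reached 10 CPM and stood at least 50-fold above every other liver, summing to 1.59%.

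Of these, 4 transcripts stood out in both tissues: COX1, DN167722_c2_g1_i1, DN30033_c0_g1_i1 and DN30021_c0_g1_i1. They are 4 of the 10 in brain and 4 of the 5 in liver. The rest of the 10 were not analysed in liver, so it could not be seen whether they stood out there. In liver, reference library 3 also held 12 such transcripts summing to 1.42%, none of which carries an mt code, so a set of high transcripts in 1 library was not particular to reference fish 2. In the opposite direction, 94 brain transcripts (0.15%) and 24 liver transcripts (0.076%) were at least 50-fold lower in reference fish 2 than in every other library of the tissue. The other fish held 162 to 204 and 24 to 35 such low transcripts, so this fish did not hold more of them. Those low in both tissues numbered 12, including DN112276_c2_g1_i3 and DN80_c2_g1_i1.

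**Figure D3:**
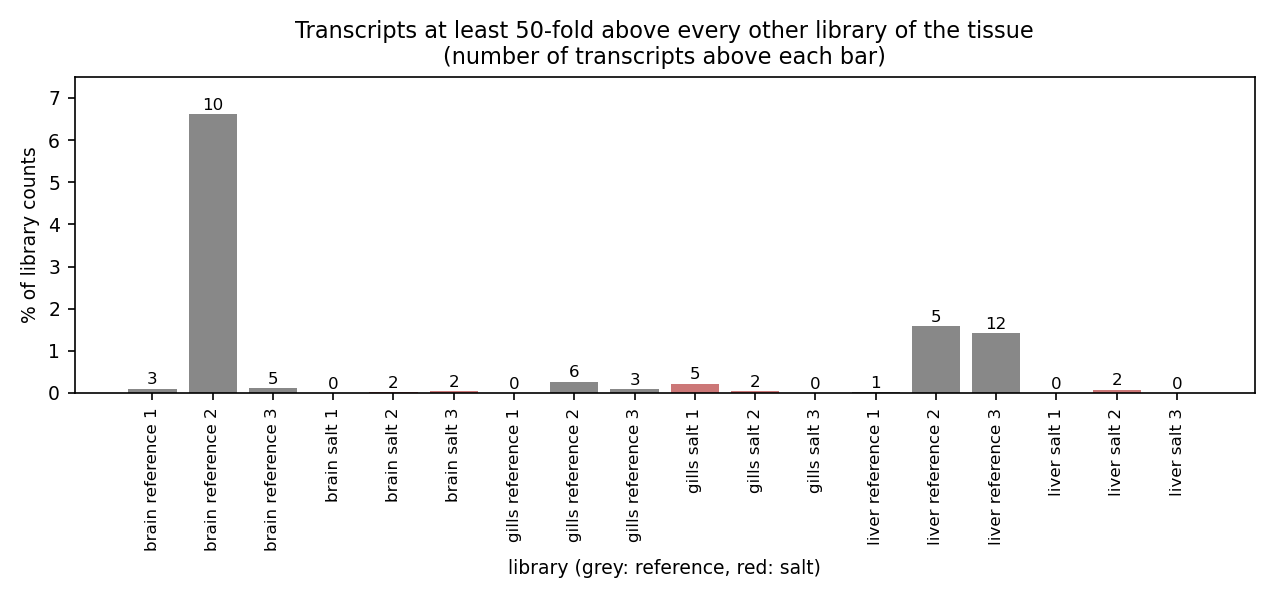
Share of each library's counts (bars, %) taken by transcripts of at least 10 CPM that were at least 50-fold above every other library of the tissue, with their number above the bar, grey for the reference and red for the salt station. Brain reference 2, with 10 transcripts, reaches 6.61%, and liver reference 2 and 3 reach 1.59 and 1.42%.

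The transcripts most like COX1 over the 18 libraries were named by Pearson's r of log2(CPM + 0.5) among 15275 transcripts with a mean of at least 5 CPM. They were DN30021_c0_g1_i1 with r = 0.96, which has no hit, DN167722_c2_g1_i1 with r = 0.95 and DN1359_c0_g1_i19 with r = 0.83, hit ENSDARP00000122296. These 18 points share fish between tissues and rest on reference fish 2: without its 2 libraries, r for DN167722_c2_g1_i1 was 0.72. DN30021_c0_g1_i1 was at 346 CPM in the brain of reference fish 2 against 3.44 to 5.45 CPM in the others, and at 55.5 against 0.30 to 1.09 CPM in liver. DN1359_c0_g1_i19 was at 34.9 against 5.26 to 14.5 CPM in brain and at 37.1 against 0.86 to 3.01 CPM in liver.

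Among hits, summed over their transcripts, r with COX1 was highest for DN30021_c0_g1_i1, for ENSDARP00000087875 at 0.95 and for ENSDARP00000120175 at 0.73. The lowest r, at -0.84, belonged to XENTRmt_YP_203382.1, whose sum holds DN112276_c2_g1_i3 but not DN112276_c2_g1_i2 of the same assembled gene. That lowest value was looked up after the values were seen.

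**Figure D4:**
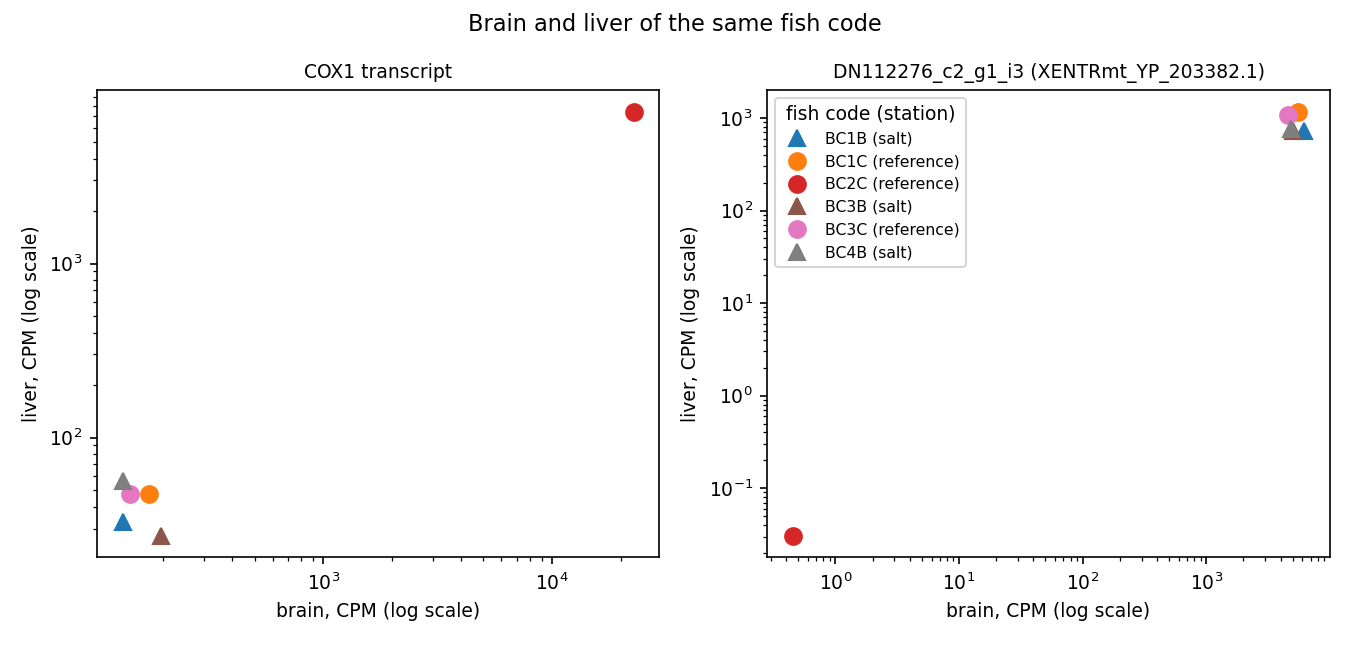
Liver against brain level in CPM (both axes log) for the 6 fish codes with both tissues, for COX1 and for DN112276_c2_g1_i3; circles are reference and triangles salt fish. Code BC2C is at 22750 and 7452 CPM for COX1, above the other 5, and at 0.45 and 0.03 CPM for DN112276_c2_g1_i3, below them.

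The study's question was how the tissues of this minnow differ between the stations. For the 1 transcript with COX1 in its identifier no difference passed the test in any tissue. COX1 differed by a log2 fold change, salt minus reference, of -5.73 ± 2.29 (SE) in brain and -5.15 ± 2.17 in liver, and of -0.29 ± 0.19 in gills, with 3 libraries per station. The adjusted p of edgeR's quasi-likelihood test was 1.00 for brain, 1.00 for gills and 0.917 for liver. No feature passed in these fits (0.0% of features called in each tissue), while 4.45, 0.869 and 5.42% of the summed features had an unadjusted p under 0.05. DESeq2 called 762, 37 and 389 features, and gave COX1 no p in brain and liver.

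The stations overlapped for COX1 in each tissue: 142 to 22750 CPM at the reference and 133 to 195 CPM at the salt station in brain, 91.3 to 112 and 72.0 to 96.6 CPM in gills, and 47.4 to 7452 and 27.1 to 56.5 CPM in liver. Stations that did not overlap were found for 11.1% of the brain, 5.68% of the gill and 23.9% of the liver transcripts. The brain and liver values rest on reference fish 2. Without it, the log2 fold change was 0.00 ± 0.25 in brain and 0.51 ± 0.42 in liver, with adjusted p of 1.00 and 0.947 in edgeR's test. These directions turned with the scaling: on total counts without scaling factors the values were -0.04 ± 0.23 in brain and -0.29 ± 0.43 in liver (adjusted p = 0.999 and 0.719). Without gill reference 1 and the library labelled salt 3, the gill value was -0.45 ± 0.28.

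As group means, COX1 stood at 7688 ± 13044 CPM (SD, n = 3) in the reference and 153 ± 35.9 CPM (SD, n = 3) in the salt brains. In liver the means were 2516 ± 4275 and 38.8 ± 15.6 CPM (SD, n = 3 each). In gills they were 99.2 ± 11.4 and 84.1 ± 12.3 CPM (SD, n = 3 each). The SD exceeded the mean in both groups that held reference fish 2.

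**Figure D5:**
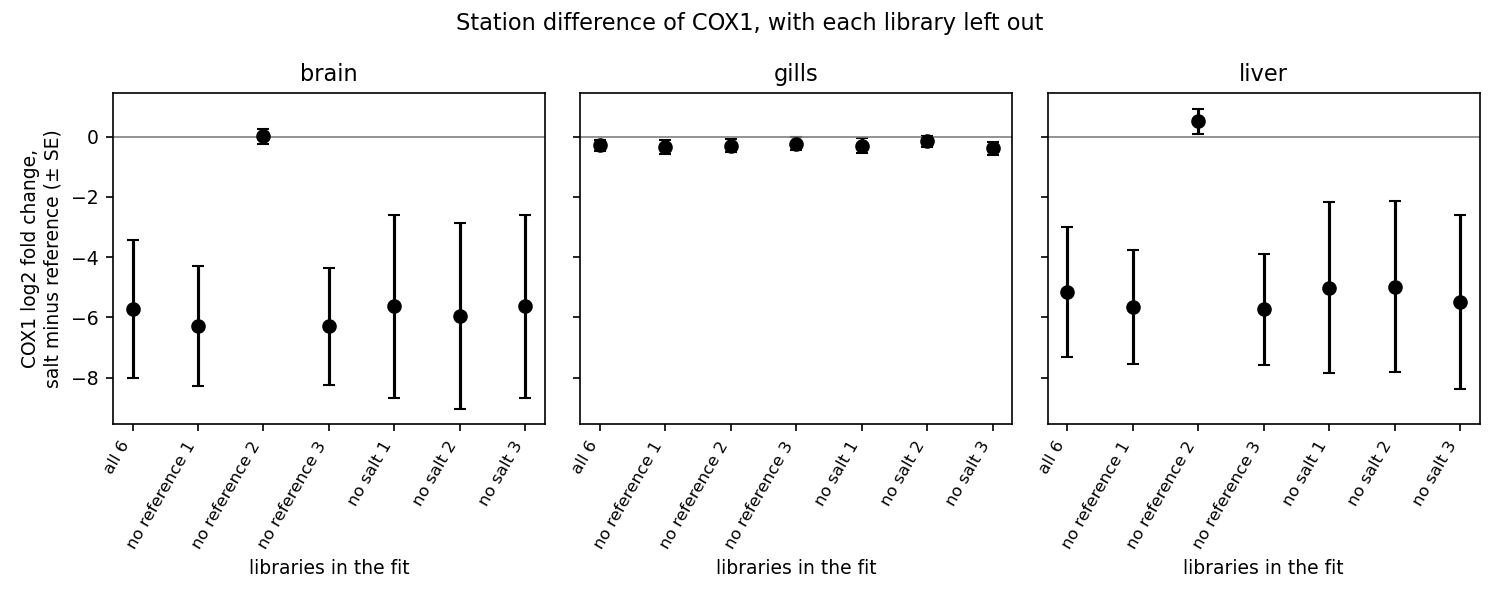
COX1 log2 fold change, salt minus reference, with its SE, in each tissue with all 6 libraries and with each library left out in turn. Brain and liver lie between -6.31 and -4.98 except without reference 2, where they are at 0.00 and 0.51, and gills lie between -0.39 and -0.16.

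No tested hit with an mt code other than COX1 passed the threshold between stations. The summed hit XENTRmt_YP_203382.1 had log2 fold changes of 0.72 ± 2.00 in brain, 0.80 ± 2.05 in liver and 0.35 ± 0.35 in gills. XENTRmt_YP_203372.1 had 0.43 ± 0.70, 1.26 ± 0.99 and -0.10 ± 0.58 in the same order, with adjusted p in edgeR's test of 0.996 to 1.00 over both hits and the 3 tissues. Without gill reference 1 and the library labelled salt 3, the gill values were 0.42 ± 0.51 and -0.37 ± 0.89, neither past the threshold. For XENTRmt_YP_203382.1 the brain and liver fits hold reference fish 2, at 0.45 and 0.03 CPM. On total counts, its other reference livers were at 1300 and 1195 CPM, and the salt livers lower, at 820, 807 and 878 CPM. Its other reference brains, at 5957 and 4953 CPM, overlapped the salt brains, at 6705, 5505 and 5270 CPM. No station fit of this hit without reference fish 2 is given. DN30033_c0_g1_i1 did not pass the filter on low counts and has no test. The difference of the COX1 station effect between tissues did not pass either, at 5.49 ± 2.53 for gills minus brain, 0.57 ± 2.37 for liver minus brain and -4.92 ± 2.50 for liver minus gills, with adjusted p of 1.00, 1.00 and 0.666 in edgeR's test. Of 14271 hits, 0.021% were called higher for gills minus brain, 0.00701% higher and 0.0631% lower for liver minus brain, and 0.0911% lower for liver minus gills.

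Among tissues, the COX1 transcript DN28674_c1_g1_i1 took its largest share of counts in brain once reference fish 2 was left out. It was at its low level in all the fish then used. Any COX1 RNA assembled under an accession without a symbol is not in these values. The level was then 155 ± 27.8 CPM (SD, n = 5) in brain, 91.6 ± 13.4 (SD, n = 6) in gills, or 90.5 ± 17.1 (SD, n = 4) without gill reference 1 and the library labelled salt 3, and 42.3 ± 12.0 (SD, n = 5) in liver. No 2 tissues overlapped on total counts: the lowest brain was at 133 CPM and the highest gill library at 112, and the lowest gill library was at 72.0 and the highest liver at 56.5 CPM. Of 22609 transcripts in all 3 tables, 11.4% had every brain above every gill library in this way, 32.6% every brain above every liver and 30.6% every gill library above every liver. In bulk tissue, fewer cells of a type and less RNA per cell cannot be told apart.

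Within single fish the same order held on total counts. Brain over gills was 1.37, 1.90 and 1.59 for codes BC1B, BC1C and BC4B, and gills over liver was 2.94, 1.93 and 1.48, the gill library of BC1B being the one that went against its code. The liver's place depends on the library total. With the most abundant liver hit, ENSDARP00000050237, left out of the totals, the 5 livers ran from 47.2 to 84.7 CPM and overlapped the gills, and gills over liver was 1.73, 1.37 and 0.99 in these codes.

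The tissue fits without reference fish 2 were chosen after its values were seen, so their adjusted p are not those of a planned test. In edgeR's test over 16 libraries with TMM scaling, without reference fish 2, gills were lower than brain by a log2 fold change of -0.84 ± 0.21 (adjusted p = 0.00472, with 21.7% of 14271 hits called lower and 24.9% higher). Liver did not differ from brain past the threshold, at -0.09 ± 0.22 (adjusted p = 0.794, with 23.2% called in each direction), and was higher than gills by 0.76 ± 0.21 (adjusted p = 0.0120, with 15.8% called higher and 21.6% lower). On total counts without scaling factors liver turned lower than gills, at -1.09 ± 0.20 (adjusted p = 0.00038), and lower than brain, at -1.86 ± 0.22 (adjusted p = 8.83e-06). Gills were below brain under both scalings, at -0.77 ± 0.20 (adjusted p = 0.00675) without factors. Without factors 43.7% of hits were called in either direction for gills minus brain, 63.8% for liver minus brain and 69.8% for liver minus gills. Without the same 2 gill libraries as well, gills minus brain was -0.87 ± 0.25 (adjusted p = 0.0169) and liver minus gills 0.78 ± 0.25 (adjusted p = 0.0353) with TMM, and -0.80 ± 0.24 and -1.06 ± 0.23 (adjusted p = 0.0219 and 0.00220) without factors. The order of brain and gills was thus the same under these scalings, and the place of liver was not.

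With all 18 libraries the edgeR values were -3.73 ± 1.32 for gills minus brain (adjusted p = 0.0297, with 22.8% called lower and 26.4% higher), -0.18 ± 1.18 for liver minus brain (adjusted p = 0.926, with 24.8% called higher and 25.3% lower) and 3.55 ± 1.31 for liver minus gills (adjusted p = 0.0430, with 16.6% called higher and 24.0% lower). This fit treats libraries of the same fish as separate samples. With the fish code as a block in limma, gills minus brain was -1.78 ± 1.19 (adjusted p = 0.227) and liver minus gills 1.66 ± 1.27 (adjusted p = 0.338), so neither call held. Without reference fish 2 the same blocked fit gave -0.85 ± 0.18 (adjusted p = 0.0015) and 0.71 ± 0.20 (adjusted p = 0.0138). The values over 18 libraries rest on reference fish 2, which has a brain and a liver but no gill library. Without its brain alone gills minus brain was -0.84 (adjusted p = 0.496), and without its liver alone liver minus gills was 0.72 (adjusted p = 0.597).

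The abundant hit XENTRmt_YP_203382.1 had the same order of brain and gills without reference fish 2. Its sums were 5678 ± 681 CPM (SD, n = 5) in brain, 2499 ± 762 (SD, n = 6) in gills and 1000 ± 230 (SD, n = 5) in liver. In edgeR's test gills were lower than brain by -1.26 ± 0.21 (adjusted p = 0.000372) and liver lower than brain by -0.68 ± 0.23 (adjusted p = 0.0265). With TMM scaling liver was higher than gills by 0.58 ± 0.21 (adjusted p = 0.0491), while the CPM on total counts were lower in liver, the same turn as for COX1. Without the 2 gill libraries above, its gill mean was 2686 ± 897 CPM (SD, n = 4), gills minus brain was -1.16 ± 0.25 (adjusted p = 0.00425) and liver minus gills, at 0.48 ± 0.25 (adjusted p = 0.174), no longer passed. For XENTRmt_YP_203372.1 no tissue difference passed edgeR's test without reference fish 2. Gills minus brain was -0.48 ± 0.61 (adjusted p = 0.564). Liver minus brain was -0.03 ± 0.65 (adjusted p = 0.985) and liver minus gills 0.45 ± 0.61 (adjusted p = 0.624).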

How the data were processed

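RNA of 18 libraries, extracted with an RNeasy kit and prepared with an Illumina TruSeq RNA kit per the labels' protocols, was assembled de novo per the design text. Per the submitters' processing notes, Trimmomatic and DESeq2 were used. Aligner, counter, strand setting and assembly version: not given in the sources used here. The authors deposited raw counts per transcript, 1 table per tissue. In its table, each transcript reaches 1 CPM in 2 or more of 6 libraries, so a transcript on in 1 fish only and at 0 elsewhere would not be held. CPM were computed on total counts and are not length-scaled, so levels are not compared between transcripts. The titles call the libraries of a group biological replicates; dates or lanes are not labelled.

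Tests used edgeR 4.0.16 (R 4.3.3, glmQLFTest, TMM, filterByExpr, Benjamini-Hochberg over all features of a fit, threshold 0.05), with limma 3.58.1 and DESeq2 1.42.0 as alternatives, and were tested on simulated data. Stations were compared within a tissue, per transcript and summed per first listed hit; tissues over 18 libraries with 6 group means, in which libraries of the same fish are treated as separate samples. With 1 COX1 transcript, its count and the sum are the same. Named were the 3 transcripts and 3 hits with the highest correlation with COX1, on log2(CPM + 0.5) with a mean of at least 5 CPM, and every hit with an mt code; transcripts at 50-fold, their partners and low transcripts were chosen after their values were seen. The members and lists were chosen with earlier results of these data known. Wilson intervals cover counting error only.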

Additional observations from a re-analysis of the deposited data

Results flagged for a closer look

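Of 20 sets of 6 libraries, each 1 transcript with COX1 or an mt code in 1 tissue over both stations, 8 held a library whose gap to the nearest other library, divided by the whole range of the 6, exceeded 0.625. Such a rule marks about 1 in 20 sets by chance, but the transcripts were chosen with these same values known, so the ratios restate that choice and are no test. The ratio was 0.997 in brain and 0.996 in liver for COX1 (DN28674_c1_g1_i1), with reference fish 2 highest. For DN30033_c0_g1_i1 it was 0.995 in brain and 0.997 in liver, with the same fish highest. Reference fish 2 was the lowest library for DN112276_c2_g1_i3 in brain, with 0.743, and for DN80_c2_g1_i1, with 0.680 in brain and 0.675 in liver. For DN19962_c0_g1_i1 in brain the highest library was reference fish 3, with 0.779. These sets share fish, so they are not separate observations, and no gill set was among them.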

How the results depend on the processing

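Leaving out each library in turn gave COX1 station differences (log2, salt minus reference) of -6.31 to 0.011 per transcript and -6.31 to 0.0021 per hit in brain, -0.39 to -0.19 and -0.39 to -0.16 in gills, and -5.77 to 0.47 and -5.73 to 0.51 in liver; the values turned positive without reference fish 2 only. Tissue differences ranged from -4.02 to -0.84 for gills minus brain (11 of 18 passed), from -3.01 to 2.74 for liver minus brain (2 passed) and from 0.72 to 3.84 for liver minus gills (5 passed). Liver minus brain was 2.74 without brain reference 2, 0.11 without liver reference 1 and 0.11 without liver reference 3.

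For gills minus brain, the other tissue alternatives that lost the call were the limma fit with fish code as a block (-1.78) and the replicate block (-2.32). The fit without gill reference 1 and the gill library labelled salt 3 (-3.76) also lost it. For liver minus gills they were total counts (1.78), totals without the most abundant liver hit (2.12) and the limma fit (1.66). The replicate block (2.30) and the fit without those gill libraries (3.58) lost that call too. Chosen after seeing the data, fits without reference fish 2 and without scaling factors gave liver minus gills of -1.09 on total counts and -0.61 without the most abundant liver hit, and liver minus brain of -1.86 and -1.38, both past the threshold; leaving out the 2 doubted gill libraries too gave -1.06 and -1.86 on total counts. The cause was not tested.

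Counts of calls moved with the tool: DESeq2 called 1452, 260 and 739 transcripts and 762, 37 and 389 summed features between stations in brain, gills and liver, against 0 by edgeR. Hits called between liver and gills rose from 5795 to 10159 on total counts and 9310 without the most abundant hit, without scaling factors. Without reference fish 2 they were 5329 with TMM, and without scaling factors 9957 on total counts, 9007 without that hit and 9570 on total counts without the 2 gill libraries too. Salt liver COX1 moved from 38.8 to 62.5 CPM without that hit. The rise of reference fish 2 was 177-fold in brain with TMM, and 130-fold with TMM and 134-fold without that hit in liver.

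Replicate numbers did not pair the samples: the correlation of deviations was -0.02 to -0.01 in brain, -0.01 to 0.01 in liver and -0.26, 0.17 and -0.19 in gills. With the replicate block, the summed station differences were -1.71 in brain, -0.98 in liver and -0.30 in gills, with no call, and the tissue differences were -2.32 for gills minus brain and 2.30 for liver minus gills, neither past the threshold. Shares of COX1 variants were not run, since 1 transcript carries COX1 in its identifier. Depth limits only the transcripts at 0 to 3 reads.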

Other observations

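Without reference fish 2, over 16 libraries, the transcripts most like COX1 were DN1735_c1_g1_i21 (hit ENSDARP00000105655, r = 0.97), DN344_c1_g1_i12 (hit ENSDARP00000007188, r = 0.96) and DN6728_c3_g1_i1 (no hit, r = 0.96), among 15348 transcripts. These 16 points fall into 3 tissues and share fish and library totals. None of these 3 was among the most similar over the 18 libraries.

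Reference fish 3 had intermediate levels of some transcripts that set reference fish 2 apart. In brain, DN16589_c0_g1_i11, which has no hit, was at 120 CPM in reference fish 2, 25.6 CPM in reference fish 3 and 0 to 0.90 CPM in the other 4. In liver it was at 15.5, 3.06 and 0 to 0.11 CPM in the same order. DN30033_c0_g1_i1 had the same order in both tissues. DN112276_c2_g1_i2 did not share it to the same degree, at 11058 CPM in the brain of reference fish 2 and 1.14 CPM in that of reference fish 3. Each analysed transcript reaches 1 CPM in 2 or more of 6 libraries. DN16589_c0_g1_i11, DN30033_c0_g1_i1 and DN112276_c2_g1_i2 reached it in 2 libraries of each tissue where they were analysed. For them, a second library at 1 CPM or more was thus a condition of being analysed, and only which fish it was could vary.

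A further transcript of DN2115_c0_g1, the assembled gene of DN2115_c0_g1_i17, was high or intermediate in 3 brains. The transcripts i2 and i23 of that gene were lower in reference fish 2 than in every other brain, so this pattern is not that of the gene. DN2115_c0_g1_i14, which has no hit, was at 1836 CPM in the brain of reference fish 2, 953 CPM in salt fish 1 and 48.3 CPM in reference fish 3, and at 0 to 0.26 CPM in the other 3 brains. These transcripts were chosen after their values were seen.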
